A study of Mus musculus with 6 samples.

Results

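Semaphorins are secreted or membrane-bound guidance proteins, and plexins and neuropilins are their receptors. They were examined in lung RNA of Carm1 knockout mice against wild-type mice. The members were all probe sets, the groups of short probes that give 1 value for a transcript, whose single platform gene symbol was a semaphorin of classes 3 to 7, a plexin of families A to D, neuropilin 1 or 2, or Plxdc1 or Plxdc2. There were 83 such probe sets, of 33 genes, among the 45101 on the array. Of these, 67 probe sets of 32 genes had a mean log2 signal above the 40th percentile (a signal of 59.7) and were tested. The other 16 were dimmer, with single values between 0.844 and 136, and among them was the 1 probe set of Sema6b, a class 6 semaphorin.

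RNA of whole lung was hybridised to 6 Affymetrix mouse arrays, 3 of Carm1 knockout mice and 3 of wild-type mice, with no treatment named. CARM1, the product of Carm1, methylates arginines of histones and other proteins and works with nuclear receptors in transcription. The design text places both genotypes at embryonic day 18.5, as do the knockout labels, whereas the wild-type labels say neonatal, so genotype and a possible difference in age cannot be told apart. The labels do not give the strain, the part of Carm1 that was deleted, whether the deletion was confined to a cell type, or whether samples came from separate fetuses, so p-values measure only the spread between these 6 samples. The Carm1 probe set gave signals of 814, 678 and 865 in wild type replicates 1 to 3 and of 395, 374 and 511 in knockout replicates 1 to 3, which were lower without overlap. Where it lies relative to the deletion is not known here, so it checks the labels only in part. Array medians lay between 105.8 and 121, and the arrays did not group by genotype, since wild type replicate 2 correlated best with knockout replicate 1 (r = 0.969 across probe sets). Transcripts of the Y chromosome marked 1 wild-type and 1 knockout array as male. Bacterial control RNA was present on 2 of the 3 wild-type arrays, replicates 1 and 3 (median control signals of 579 and 375). It was on no knockout array (at most 14.1). For those 2 arrays, genotype and a possible difference in handling that went with this RNA cannot be told apart.

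Semaphorin signals reach the cytoskeleton through plexins, whose intracellular part acts on small GTPases of the Ras family and lowers integrin adhesion. Most secreted class 3 semaphorins need a neuropilin as co-receptor, and neuropilins also bind vascular endothelial growth factors. In lung these molecules are known for airway branching, vessel patterning and the growth of the alveolar epithelium. Class 4 to 6 semaphorins span the membrane, and the class 7 member is held by a lipid anchor and binds integrins as well as plexin C1.

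In the knockout lungs the largest difference among the tested members was in Sema7a, the lipid-anchored class 7 semaphorin, at 41.3% of the wild-type level. Neuropilin 1 was at 74.8% to 83.4% at its 4 probe sets, and Sema3a, a repellent ligand that binds it, at 66.5% at its brightest probe set. Sema3c, another secreted class 3 ligand, had the opposite direction at 149%. No member passed an adjusted p of 0.05 over all 27022 tested probe sets with limma, where 8 probe sets (0.0296%) passed. At an unadjusted p under 0.05 there were 9 member probe sets of 67, or 13.4%, against 13.6% of all tested probe sets. With arrays centred on their medians these shares were 20.9% and 13.6%. They were 11.9% and 12.2% without the trend on mean intensity, and 10.4% and 11.2% without wild type replicate 3. Of the 9, 8 were lower in knockout, where 6.31% of all tested probe sets were, and 1 was higher, where 7.32% were. The groups did not overlap in 10 member probe sets lower and 3 higher in knockout (19.4% together), against 9.36% and 10.7% of all tested probe sets (20.0% together). The median log2 difference, knockout minus wild type, was −0.067 over the members and 0.019 over all tested probe sets. Of the member probe sets 59.7% were lower, and of all tested probe sets 47.3%. Some genes count there several times. At the probe set of highest mean of each gene, 17 of the 32 member genes were lower and 15 higher. These are bulk tissue values, in which fewer cells of a type and less RNA per cell cannot be told apart.

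**Figure D1:**
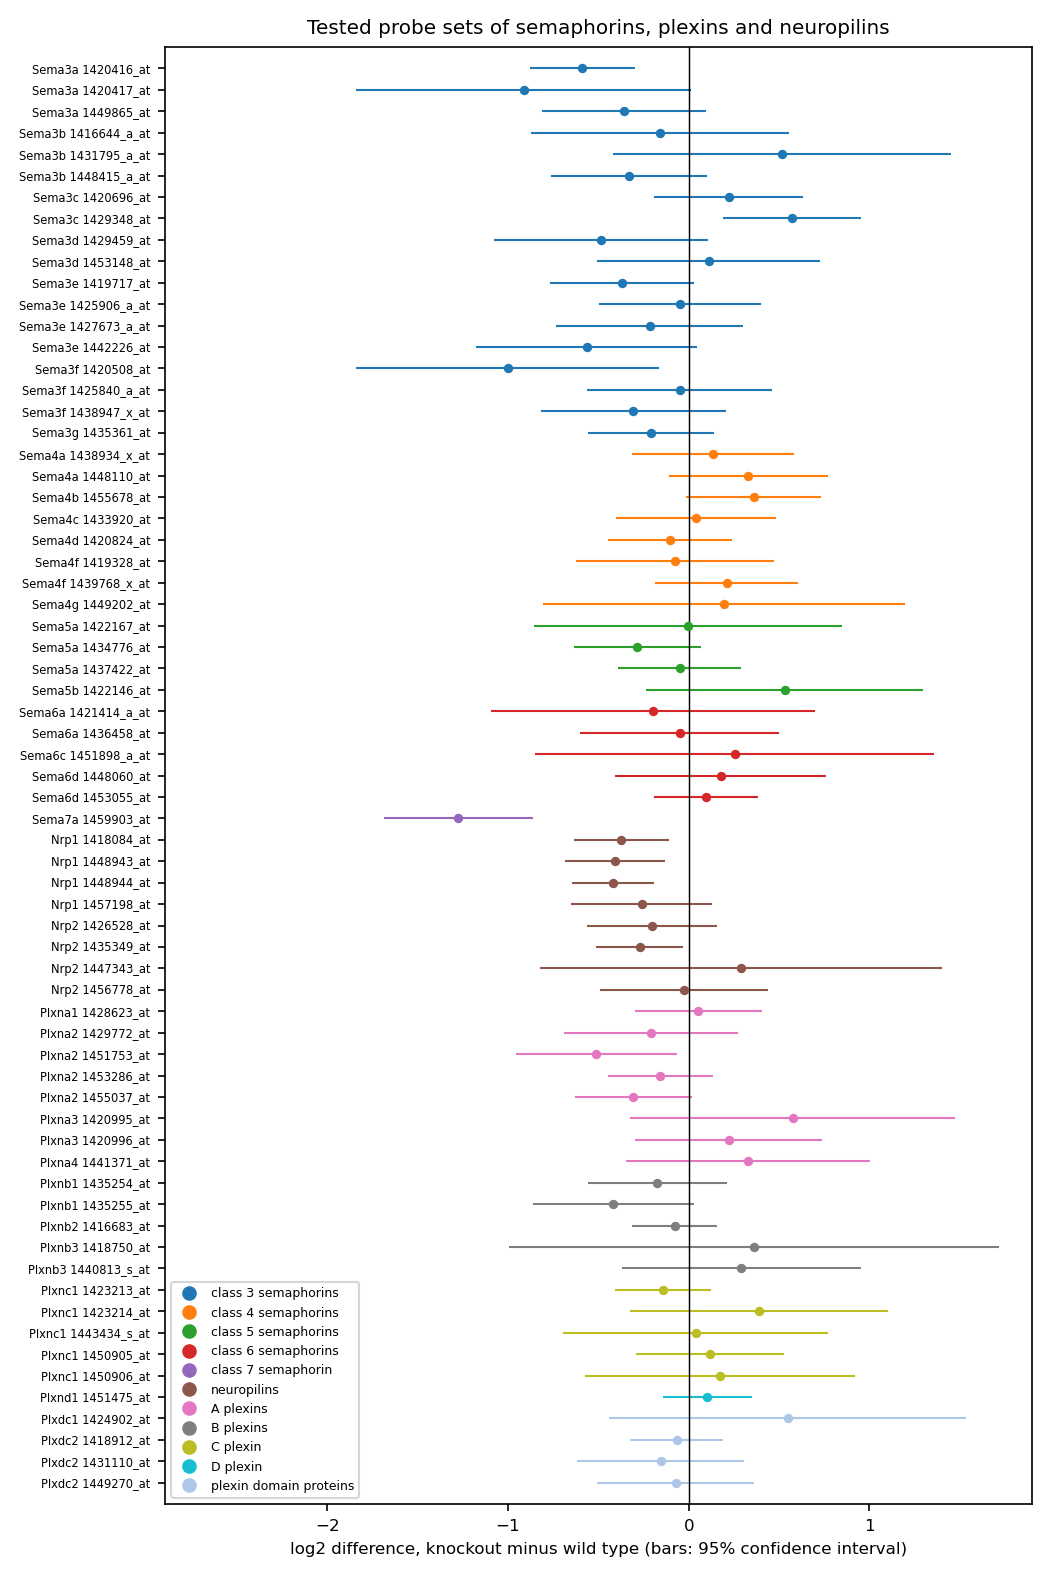
Log2 differences, knockout minus wild type, for the 67 tested member probe sets, with bars for the 95% confidence interval of the limma fit and colours for the class. Sema7a lies farthest to the left at −1.28, the 4 Nrp1 probe sets lie between −0.42 and −0.26, and most other intervals span 0.

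The plot of differences by probe set shows how unevenly the members were measured. Standard errors on the log2 scale ran from 0.10 to 0.60 with a median of 0.20. Of 19 genes with several tested probe sets, 14 had all of them on the same side of 0, 9 lower and 5 higher.

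Upstream sequence is shown for Sema7a, Nrp1, Sema3a and Sema3c, the leading members of the 2 directions, because they can be read side by side for motifs of nuclear receptors, with which CARM1 works. Each line gives the 250 bases before the RefSeq transcript start (GRCm38.p6, plus strand for each), and capitals mark any of 3 motifs searched on both strands: GGGCGG (the GC box), AGGTCA (the nuclear receptor hexamer) and AGAACA (the glucocorticoid receptor hexamer). The windows are chr9:57939862-57940111 for Sema7a, chr8:128358823-128359072 for Nrp1, chr5:13396534-13396783 for Sema3a and chr5:17574566-17574815 for Sema3c.
Sema7a: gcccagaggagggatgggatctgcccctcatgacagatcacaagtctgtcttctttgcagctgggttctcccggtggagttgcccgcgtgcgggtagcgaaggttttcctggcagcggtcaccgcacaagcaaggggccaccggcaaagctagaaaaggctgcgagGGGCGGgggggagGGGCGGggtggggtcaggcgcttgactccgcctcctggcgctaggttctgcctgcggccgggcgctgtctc
Nrp1: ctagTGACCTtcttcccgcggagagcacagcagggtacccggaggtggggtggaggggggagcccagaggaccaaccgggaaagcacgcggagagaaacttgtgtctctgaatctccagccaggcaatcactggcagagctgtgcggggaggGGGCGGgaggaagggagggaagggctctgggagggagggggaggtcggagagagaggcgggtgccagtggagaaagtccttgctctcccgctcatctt
Sema3a: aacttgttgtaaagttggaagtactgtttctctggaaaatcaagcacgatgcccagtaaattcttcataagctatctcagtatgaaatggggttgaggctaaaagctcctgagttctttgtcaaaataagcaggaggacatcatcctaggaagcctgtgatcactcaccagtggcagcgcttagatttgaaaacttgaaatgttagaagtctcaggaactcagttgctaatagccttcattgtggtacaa
Sema3c: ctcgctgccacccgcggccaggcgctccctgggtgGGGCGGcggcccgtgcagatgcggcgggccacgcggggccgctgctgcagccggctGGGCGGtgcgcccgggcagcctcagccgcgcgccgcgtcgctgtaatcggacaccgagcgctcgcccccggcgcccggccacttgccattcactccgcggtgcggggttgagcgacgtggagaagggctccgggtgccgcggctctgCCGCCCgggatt

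The Sema7a window held 2 GC boxes, that of Nrp1 1 GC box and 1 AGGTCA hexamer, and that of Sema3c 3 GC boxes, whereas the Sema3a window held none of the 3 motifs. The CG dinucleotide occurred 39 times in the Sema3c window and 2 times in that of Sema3a, with 17 for Sema7a and 11 for Nrp1. Windows were found for 26 of the 33 member genes, 37 windows in all. Of these, 73% held a GC box, 18.9% the AGGTCA hexamer and 18.9% the AGAACA hexamer, and the shares over all 32851 windows of that length in the table were 32.7%, 14% and 16.1%. The median CG count was 13 in member windows and 6 in all windows. All windows came from 27025 genes and were not matched to the members in CG count or kind of gene. The shares are therefore not a like comparison. A match is a description of the letters and not evidence of binding.

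Among the ligands, Sema7a had signals of 1194, 819.6 and 905 in wild type replicates 1 to 3 at probe set 1459903_at. In knockout replicates 1 to 3 the signals were 429, 444 and 328. All knockout values lay well below all wild-type values, and wild type replicate 1 was the highest. The mean signal was 973 ± 196 (SD, n = 3, as for all means given here) for wild-type arrays and 400.3 ± 62.7 for knockout arrays, a 2.42-fold lower level with a 95% confidence interval from 31.0% to 55.0% of wild type. The limma adjusted p was 0.0852, the 20th smallest unadjusted p on the array, and a two-sided exact permutation test gave p = 0.1, below which 3 against 3 arrays cannot go. With a robust variance the limma adjusted p was 0.0395, the 1 alternative in which a member passed. That setting raised the number passing among all tested probe sets from 8 to 40. Without the trend on mean intensity the limma adjusted p of Sema7a was 0.261. The log2 difference was −1.40 among the 2 female arrays of each genotype, −1.03 between the male arrays, and −1.05 for the knockouts against wild type replicate 2, the wild-type array without bacterial control RNA. The second Sema7a probe set, 1422040_at, was too dim to be tested, at 123, 112 and 90.5 in wild type and 29.9, 96.6 and 10.4 in knockout, where knockout replicate 2 lay inside the wild-type range.

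**Figure D2:**
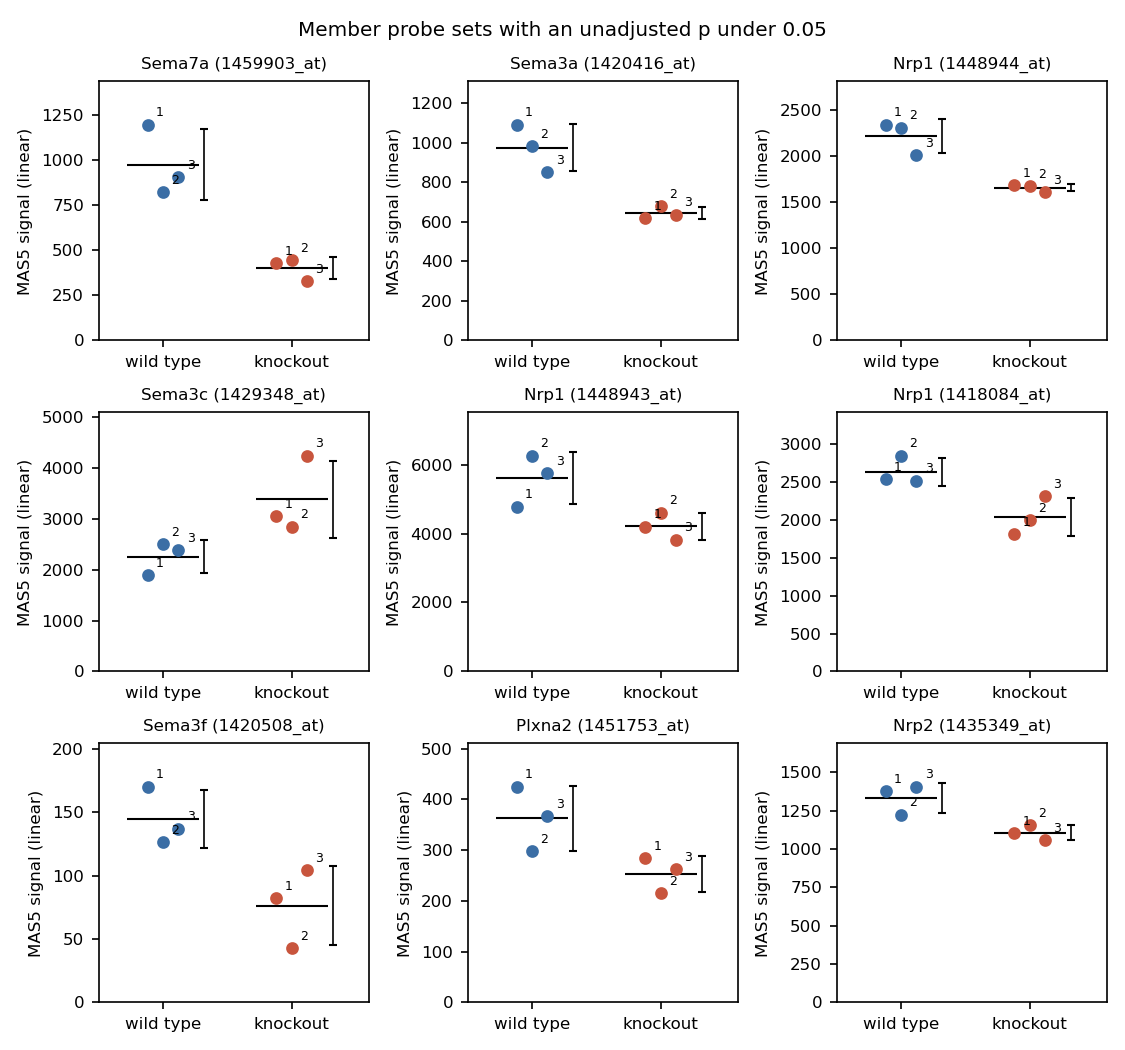
MAS5 signal on a linear scale for each array, numbered by replicate, at the 9 member probe sets with an unadjusted p under 0.05; lines are means and bars are the SD of 3 arrays. In 8 panels all knockout arrays lie below all wild-type arrays, and in the Sema3c panel they lie above, with knockout replicate 3 the highest at 4244.

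The plot of signals by array shows these 9 probe sets, which stand for 7 genes. In none of them did the genotypes overlap, so comparisons within a sex or without the arrays that held bacterial control RNA can move only the size of a difference and not its direction.

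Class 3 semaphorins, the secreted ligands, were mostly lower: 14 of 18 tested probe sets, with a median log2 difference of −0.26. Sema3a, a repellent of axons and endothelial cells, had signals of 1092, 982 and 853 in wild type and 620.2, 680.0 and 637 in knockout at 1420416_at. The knockout values were tightly grouped and did not overlap those of wild type, with a log2 difference of −0.59 (SE 0.13, limma adjusted p = 0.135). Its 2 other probe sets, made for the same transcript record, differed by −0.91 (SE 0.41) and −0.36 (SE 0.20), with overlap. In both of them knockout replicate 3 was the lowest array, at 53.3 and 292.

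Sema3c, known for its part in outflow tract and vascular development, had signals of 1888, 2502 and 2381 in wild type and 3059, 2846 and 4244 in knockout at 1429348_at. Every knockout array lay above every wild-type array, and knockout replicate 3 stood highest. The log2 difference was 0.57 (SE 0.17, limma adjusted p = 0.215), and it was 0.40 without knockout replicate 3. The second Sema3c probe set differed by 0.22 (SE 0.18) with overlap, and between the male arrays its difference was −0.04.

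Sema3f, the class 3 ligand that prefers neuropilin 2, was measured by 3 probe sets that did not match in size. At the dimmest, 1420508_at, the signals were 170.2, 127 and 137 in wild type and 82.2, 42.9 and 104 in knockout. These did not overlap, at a log2 difference of −1.0 (SE 0.37, limma adjusted p = 0.294), which was −0.63 without knockout replicate 2. At 1438947_x_at, which by its suffix may cross-hybridise, the signals were 407, 663 and 397 in wild type and 319, 405 and 439 in knockout, a difference of −0.31 (SE 0.23) that was −0.07 without wild type replicate 2. The last probe set differed by −0.05 (SE 0.23), with 353 ± 67.4 in wild type and 344 ± 81.4 in knockout.

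For Sema3e, which unlike the others can bind plexin D1 without a neuropilin, all 4 probe sets lay below 0, from −0.56 to −0.05. The brightest had signals of 1533, 1717 and 1824 in wild type and 1483, 1537 and 976 in knockout. The groups overlapped, knockout replicate 3 was the lowest array, and the log2 difference of −0.37 (SE 0.18, limma adjusted p = 0.398) was −0.16 without that array. Among the remaining class 3 ligands, the brightest probe sets of Sema3b, Sema3d and Sema3g differed by −0.33, −0.49 and −0.21. Each had overlapping groups, and other probe sets of Sema3b and Sema3d had the opposite sign (0.52 and 0.11). By the promoter starts, Sema3d, Sema3a, Sema3e and Sema3c follow each other in this order on chromosome 5, and of these 4 genes Sema3c alone was higher in knockout at its brightest probe set.

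Class 4 semaphorins, membrane proteins with roles in immune cells and vessels, leaned the other way: 6 of 8 tested probe sets were higher, with a median of 0.16, and none had an unadjusted p under 0.05. Sema4b had signals of 295, 366 and 379 in wild type and 415, 504 and 415 in knockout, without overlap (log2 0.36, SE 0.17, limma adjusted p = 0.386). Sema4a, which acts on T cells, did not overlap at 1448110_at, at 185 ± 26.8 against 231 ± 6.16, while its brighter probe set differed by 0.13 with overlap. The brightest probe sets of Sema4c, Sema4f and Sema4g differed by 0.04, 0.21 and 0.19, and that of Sema4d, a ligand of plexin B1, by −0.10.

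In class 5, marked by thrombospondin repeats, Sema5a differed by −0.05 at its brightest probe set and Sema5b by 0.53 with a 95% confidence interval from −0.24 to 1.30. The class 6 members, which can also act as receptors, gave −0.05 for Sema6a, 0.25 for Sema6c and 0.10 for Sema6d. Sema6d was the most precisely measured of them, at 2000.2 ± 299.5 in wild type and 2124 ± 144 in knockout, which puts the knockout between 87.4% and 131% of wild type. The dim Sema6b probe set had signals of 17.3, 43.6 and 55.9 in wild type and 65.9, 82.6 and 56.1 in knockout, and was not tested.

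Among the receptors, neuropilins were lower in 7 of 8 probe sets with a median of −0.27. Of the 4 probe sets of Nrp1, the co-receptor of Sema3a and of vascular endothelial growth factor, 3 were made for the same transcript record and are not independent measures. At the brightest, 1448943_at, the signals were 4777, 6260.0 and 5759.8 in wild type and 4195, 4601 and 3821 in knockout. At 1448944_at they were 2341, 2309.5 and 2008 in wild type and 1686, 1672 and 1612 in knockout. Both showed all knockout arrays below all wild-type arrays, and the knockouts lay closest together at the latter. The log2 differences at these 2 were −0.41 (SE 0.12, limma adjusted p = 0.222) and −0.42 (SE 0.10, limma adjusted p = 0.156). At 1418084_at the signals were 2532, 2846 and 2514 against 1813, 1996 and 2309.6, again without overlap, with a difference of −0.37 (SE 0.12, limma adjusted p = 0.235). The fourth probe set, made for another record, differed by −0.26 (SE 0.17) with overlap.

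Nrp2, the neuropilin of lymphatic vessels and veins, had signals of 1374, 1223 and 1405 in wild type and 1103, 1156 and 1057 in knockout at its brightest probe set. The groups were separate but close, at −0.27 (SE 0.11, limma adjusted p = 0.321), and the difference was −0.15 against the wild-type array without bacterial control RNA. Its other 3 probe sets differed by −0.21, −0.03 and 0.29, with overlap in each.

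Of the 19 tested plexin probe sets 1 had an unadjusted p under 0.05. Plxna2, an A plexin that pairs with neuropilins, was lower at all 4 probe sets, from −0.51 to −0.16. At 1451753_at its signals were 425, 297 and 367 in wild type and 284, 215 and 262 in knockout. These did not overlap, at −0.51 (SE 0.20, limma adjusted p = 0.308), and the value was −0.24 against the wild-type array without bacterial control RNA. The brightest Plxna2 probe set differed by −0.16 with overlap, and 1455037_at by −0.31 without overlap, at 505 ± 21.9 against 409.8 ± 47.1. Plxna1 had signals of 430.2, 567 and 573 in wild type and 492, 563 and 565 in knockout, which overlap almost fully. Its difference of 0.05 (limma adjusted p = 0.913, knockout between 81.2% and 133% of wild type) changed sign without wild type replicate 1. Plxna3 and Plxna4 differed by 0.22 and 0.33 at their brightest probe sets.

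Plxnd1, the endothelial plexin that receives Sema3e, had signals of 1520.4, 1646 and 1742 in wild type and 1789, 1589.9 and 1895 in knockout. The groups overlapped, at a log2 difference of 0.10 (SE 0.11, limma adjusted p = 0.728) and a knockout level between 90.5% and 127% of wild type. Among B plexins, receptors of class 4 semaphorins, Plxnb1 did not overlap at its brightest probe set (452 ± 96.2 against 336 ± 49.7, log2 −0.42, limma adjusted p = 0.398) and differed by −0.17 with overlap at the other. Plxnb2, at 2094 ± 177 and 1981 ± 115, lay between 80.5% and 111% of wild type, and Plxnb3 differed by 0.29 with a wide interval from −0.37 to 0.95. Plxnc1, the plexin that binds Sema7a, was at 866 ± 57.3 and 785 ± 58.6 at its brightest probe set, a difference of −0.14 (SE 0.12) between 75.3% and 109% of wild type, and its 4 other tested probe sets lay above 0. The plexin domain proteins Plxdc1 and Plxdc2, which are not semaphorin receptors, differed by 0.55 (SE 0.44) and −0.07 (SE 0.11).

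Other genes of the pathway were taken at 1 probe set per gene, the brightest. Over the 12947 genes so measured, 7.37% were lower and 9.18% higher at an unadjusted p under 0.05, and 0.0541% passed the adjusted p. None of the pathway genes did. Of 32 cytoplasmic effectors of plexins 4 were lower and 1 higher at an unadjusted p under 0.05, with a median of −0.09. The 4 of smallest p were Rras2, a Ras-family GTPase of the kind that plexins inactivate, at 4637 ± 313 in wild type and 3317 ± 236 in knockout, Rhoa (10275 ± 219.9 and 8097 ± 994), the collapsin response mediator Dpysl2 (19230.0 ± 1913 and 15476 ± 737), and Rnd3 (1417 ± 183 and 1797 ± 159.8), the 1 that was higher. All 4 had separate groups, with limma adjusted p between 0.129 and 0.291. Of 16 partner receptors 5 were lower and 0 higher by the same criterion, where the median was −0.035, and −0.25 against the wild-type array without bacterial control RNA. Among the 5 were the vascular endothelial growth factor receptors Kdr (1696 ± 258 and 1211 ± 68.5) and Flt1 (−0.40). The others were the endothelial cadherin Cdh5 (−0.36) and the integrin subunits Itga1 (−0.52) and Itgb1 (−0.28). Cdh5 is also on the list of endothelial markers, and the partner receptor Flt4 on that of lymphatic endothelial markers.

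The 5 growth factors tested that bind neuropilins or their partners went both ways. Vegfa had signals of 2894, 2930.4 and 2574 in wild type and 1729.8, 2239.6 and 1586 in knockout (log2 −0.61, limma adjusted p = 0.141). Vegfb had signals of 469, 434 and 411 in wild type and 582, 627 and 639 in knockout (log2 0.49, limma adjusted p = 0.175). Neither overlapped, so these 2 ligands differed in opposite directions, and Vegfc, Vegfd and Pgf differed by 0.26, −0.39 and 1.44 with overlap, the last with wild type replicate 1 at a signal of 8.91. Vegfa is also on the list of alveolar type I cell markers. Of the 4 convertases that can cleave class 3 semaphorins, Pcsk6 was higher without overlap, at 208 ± 19.9 and 355 ± 38.2 (log2 0.77, limma adjusted p = 0.143). Pcsk7 was lower without overlap (log2 −0.24, limma adjusted p = 0.470), and Furin and Pcsk5 differed by −0.09 and −0.05 with overlap.

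**Figure D3:**
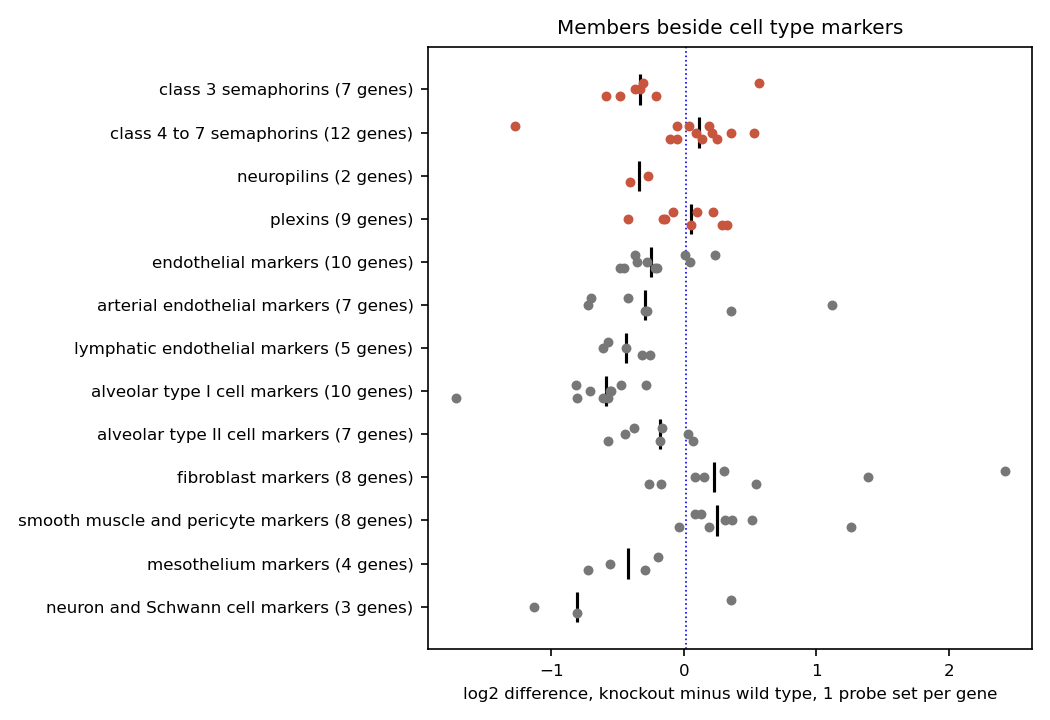
Log2 differences, knockout minus wild type, with 1 probe set per gene, for the members other than Plxdc1 and Plxdc2 (red) and for markers of 9 cell types (grey); black bars are medians and the dotted line is the median over all tested probe sets (0.019). Endothelial and alveolar type I markers lie mostly below 0, with medians of −0.25 and −0.59, and those of fibroblasts and smooth muscle mostly above, with medians of 0.23 and 0.25.

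The plot of members beside markers sets these values beside those of cell type markers, of which none passed the adjusted p. Of 10 endothelial markers 7 were lower, 5 of them at an unadjusted p under 0.05, and their summed signal ran from 25129 to 27883 in wild type and from 20629 to 23539 in knockout. The median of −0.25 compares with −0.41 for Nrp1 at its brightest probe set, −0.27 for Nrp2 and 0.10 for Plxnd1. Of 5 lymphatic endothelial markers, 1 of which is shared with the alveolar type I list, all 5 were lower, 1 of them at an unadjusted p under 0.05, with sums from 8809 to 11719 in wild type and from 5629 to 7992 in knockout. Lyve1 and the shared Pdpn gave most of these sums. The groups overlapped for all but Lyve1, and Prox1 was dim, at 77.2 ± 36.9 and 61.5 ± 19.5. All 10 alveolar type I cell markers were lower with a median of −0.59, 8 of them at an unadjusted p under 0.05, with sums from 112190 to 149640 in wild type and from 74820 to 96186 in knockout.

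Of 7 arterial markers 5 were lower (median −0.29, and −0.042 against the wild-type array without bacterial control RNA), and of 4 mesothelial markers all 4 were lower (median −0.42). For 8 fibroblast markers 6 were higher (median 0.23), with summed signals of 64541 to 71348 in wild type and 70112 to 85316 in knockout, which overlap. For 8 smooth muscle and pericyte markers 7 were higher (median 0.25), with summed signals of 14496 to 15573 in wild type and 15704 to 18378 in knockout. Medians were −0.18 for 7 alveolar type II cell markers, 0.12 for 5 of airway epithelium and 0.025 for 6 of macrophages and other leukocytes. Against the wild-type array without bacterial control RNA they were −0.068, 0.34 and −0.054. The 2 erythroid markers tested went opposite ways, with Alas2 at −0.36 and Slc4a1 at 0.99, and their median of 0.32 became −0.57 against that array. Of 10 markers of neurons and Schwann cells only Stmn2, Sox10 and S100b were tested. Their log2 differences of −0.81 (SE 0.20), −1.13 (SE 0.65) and 0.36 (SE 0.60) did not share a direction. Knockout replicate 3 was the lowest array for Sox10, at 16.8, and the highest for S100b, at 221. The summed signal of these genes, mostly from Stmn2, ran from 756.5 to 1102 in wild type and from 511 to 599 in knockout. The neuronal markers Tubb3, Elavl3, Elavl4 and Snap25 had signals of at most 76.4 on any array, and the dim Elavl4 was at 19.8, 5.66 and 12.1 in wild type and 49.4, 51.5 and 57.1 in knockout. The part of these cell type differences in the values of the members was not tested.

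**Figure D4:**
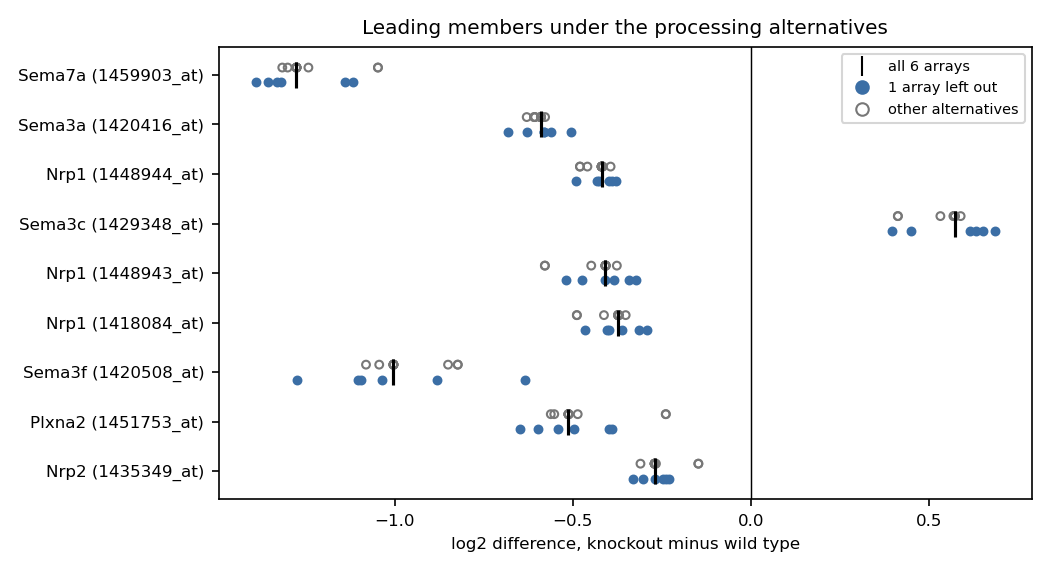
Log2 differences, knockout minus wild type, of the 9 leading probe sets with all 6 arrays (black bars), with 1 array left out (blue) and under the other alternatives (open circles). All points of 8 probe sets lie below 0 and those of Sema3c above 0, and Sema3f moves most, from −1.27 to −0.63.

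The plot of alternatives shows how far the sizes of these 9 differences moved. They were chosen by p and their groups do not overlap, so leaving out an array cannot turn their direction. Sema7a ranged from −1.39 to −1.05, the Sema3a probe set from −0.68 to −0.50 and Sema3c from 0.40 to 0.69. The brightest Nrp1 probe set ranged from −0.58 to −0.32.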

How the data were processed

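Total RNA of 6 lung samples was measured on 1 array each, and the deposited values were MAS5 signal intensity values on a linear scale, per the submitters' processing notes. The mean after trimming 2% at each end was 500 on each array. The MAS5 version and settings are not given in the sources used here, and detection calls were not used here. After 64 control probe sets were left out, log2 was taken with no pseudocount, and 27022 probe sets above the 40th percentile of mean log2 entered a linear model in limma 3.58.1 (R 4.3.3; moderated variances with a trend on mean intensity), knockout minus wild type, two-sided, with Benjamini-Hochberg adjustment over all of them. Confidence intervals are at 95%. Fold values and percentages of wild type come from the fitted log2 differences. The test was tested on simulated data with independent normal noise for each probe set. Those data had no built-in difference in sex, age or bacterial control RNA, so they do not show how the test behaves where arrays differ in these. Symbols came from the platform annotation, and promoter windows from RefSeq (GRCm38.p6).

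The members, gene lists and rules were chosen with earlier results of these data known. By the rule for named genes, every tested member gene was named at its brightest probe set, and all arrays were given for genes with an unadjusted p under 0.05 (up to 10 per direction) and for Nrp1, Nrp2, Plxnd1, Plxna1, Sema3a, Sema3c, Sema3e and Sema3f. From each pathway list up to 4 genes of smallest p were named, and the others named, markers included, were chosen after their values were seen. The number of arrays limits the precision. The brightest probe set is that of highest mean signal, and expression levels were not compared between probe sets. Alternatives covered normalization, filters, a pseudocount, the variance prior, a replicate block, sex, bacterial control RNA and leaving out each array.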

Additional observations from a re-analysis of the deposited data

How the results depend on the processing

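No member probe set passed the adjusted p in any alternative other than a robust variance, where 1 did (Sema7a), among 40 of all tested probe sets. The count of lower members at an unadjusted p under 0.05 was 8 in the main analysis. It became 13 when arrays were centred on their medians, 11 with quantile normalization and 11 with sex as a term. Members of either direction then made up 20.9%, 17.9% and 17.9% of those tested, against 13.6%, 13.9% and 12.6% of all probe sets. Without the intensity trend the lower count was 7, and the shares were 11.9% and 12.2%. With the filter at the 60th percentile the lower count was 7, and the shares were 18.6% and 16.7%. With 1 array left out the lower count ran from 6 to 10. The shares ran from 10.4% against 11.2% (without wild type replicate 3) to 16.4% against 12.2% (without knockout replicate 2). Without knockout replicate 3 they were 13.4% and 8.97%. The count of higher members, 1, became 2 with bacterial control RNA as a term, with only the arrays without that RNA, and without wild type replicate 1, so that its range with 1 array left out was 1 to 2. The median log2 difference of the members ran from −0.11 to 0.017 when 1 array was left out, the highest value being that without wild type replicate 3, against −0.067 with all arrays. It was −0.16 with the filter at the 60th percentile and −0.050 with 1 probe set per gene. The difference of Plxna1 reversed, to −0.075 with bacterial control RNA as a term or with only the arrays without it, and ran from −0.082 (without wild type replicate 1) to 0.12 (without wild type replicate 3) with 1 array left out. With the replicate number as a block, 8 lower and 1 higher member had an unadjusted p under 0.05 and none passed the adjusted p. Deviations of same-numbered arrays from their group means correlated at −0.14, −0.38 and −0.01, and those of differently numbered arrays at −0.27 to 0.37. With 3 arrays per group these correlations depend on each other, so they cannot decide whether the numbers pair the arrays. The comparison with only wild type replicate 2 assumes that this lone array varies like the knockouts. Probe sets of mean signal under about 59.7 were not tested, so differences there are not known.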
